A study of Mus musculus with 15 samples.

Results

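The genes described here encode the enzymes that cut, the proteins that inhibit the cutting of, and the enzymes that crosslink the extracellular matrix: matrix metalloproteinases (Mmp), tissue inhibitors of metalloproteinases (Timp), the ADAM and ADAMTS families, and lysyl oxidase with its relatives (Lox, Loxl1 to Loxl4). They were chosen by gene symbol alone, and 78 of the 23866 genes in the count table matched: 23 MMP, 4 TIMP, 27 ADAM, 19 ADAMTS and 5 LOX genes. Of these, 9 had no counts in any library (Adam18, Adam20, Adam24, Adam25, Adam29, Adam34, Adam39, Mmp1a and Mmp1b). In all, 16 stayed under 0.5 CPM (counts scaled to library size) in every library, and the other 62 are described. The nearest genes below that limit were Mmp21, which reached 0.413 CPM, and Adamts17, which reached 0.404 CPM, and the nearest above it were Adamts18 and Mmp16, both at 0.532 CPM. The filter on low counts left 53 genes for testing, and 3 of these (Mmp7, Mmp25 and Adam28) passed it only through the mice that received both agents.

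Whole kidneys of male C57BL/6 mice were studied by RNA sequencing in a model of alcoholic liver fibrosis with acute kidney injury. The olive oil group (n = 3) received intraperitoneal vehicle for 6 weeks, and the EtOH group (n = 4) received olive oil for 6 weeks and then ethanol for 4 weeks. The CCl4 group (n = 4) received intraperitoneal carbon tetrachloride, a liver toxin, for 6 weeks, and in 2 of the 4 mice this was followed by a lower dose for 4 weeks. The CCl4+EtOH group (n = 3) received CCl4 for 6 weeks and then ethanol for 4 weeks, although its sample titles name CCl4 again beside ethanol. Ages, absolute doses and the route of ethanol are not in the labels. By the labels, the olive oil mice and 2 CCl4 mice had 6 weeks of treatment, and all others had 4 further weeks.

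The matrix is kept in balance by enzymes that work outside or on the surface of cells. MMPs are zinc enzymes secreted or anchored as inactive precursors; together they cleave collagens, elastin, laminin and many surface proteins, and TIMPs block them by binding the active site. ADAM proteins sit in the membrane and release the outer parts of cytokines, receptors and adhesion molecules, ADAMTS proteins are secreted and cut proteoglycans, procollagens or von Willebrand factor, and lysyl oxidases crosslink collagen and elastin and so stiffen the matrix. In injured kidney, several of these genes are known to be induced in tubule, interstitial and infiltrating cells.

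Libraries held 16.4 to 23.5 M counts, and values are CPM on libraries scaled by the trimmed mean of M values (TMM). Proximal tubule markers matched the tissue label: over 8 of them the summed level was 13166 to 17153 CPM in the olive oil, CCl4 and EtOH mice and 5684, 5574 and 15247 CPM in CCl4+EtOH mice 1, 2 and 3. Thus mouse 3 of the combined group stood apart from mice 1 and 2 in the sum of its tubule markers, and counts of called genes are given with and without it. EtOH libraries 1 to 3 carried adrenal cortex markers at a summed 722.7 to 1137 CPM, against at most 26.9 CPM in every other library, and chromaffin markers at 73.0 to 198 CPM, against at most 0.426 CPM. Whole tissue was sequenced, so fewer cells of a type and less RNA per cell cannot be told apart.

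With both agents, genes of all 5 families rose, most of them in every mouse. In CCl4+EtOH compared with olive oil, 25 of 53 were higher and 3 were lower (edgeR quasi-likelihood test, Benjamini-Hochberg adjusted p under 0.05 over 16105 genes), where 18.9% of all genes tested were higher and 16.6% were lower. The median log2 change was 0.65 over the 53 genes and 0.02 over all genes. Leaving aside Mmp7, Mmp25 and Adam28, which passed the filter only through this group, 24 of 50 were higher and 3 lower, with a median of 0.65. By family, 8 of 16 MMP (Mmp7 included), 2 of 4 TIMP, 5 of 14 ADAM, 6 of 14 ADAMTS and 4 of 5 LOX genes rose, while Timp3, Adam9 and Adamts15 fell. The libraries of the 2 groups did not overlap for 26 genes that were higher and 3 that were lower, against 22.9% and 20.8% of all genes. Mmp7 and Adam28, which passed the filter only through CCl4+EtOH, are among the 26, and their place there is a description only. The sample titles hold a number whose meaning is not given. With a term for a low (under 270) or high title number, 15 of the 25 kept their call. Mmp3, Mmp7, Mmp12, Mmp23, Timp1, Adam8, Adam17, Adam19, Adamts2 and Loxl1 lost it, as did Adam9 among the lower genes. Calls over all genes also fell, to 19.2% in either direction. All olive oil libraries had low numbers and all CCl4+EtOH libraries high ones. Within CCl4 the term marks the 2 mice with the further lower dose, and within EtOH only mouse 1 had a low number. For 17 genes, Mmp7 among them, all 3 CCl4+EtOH libraries lay above all 11 others, against 10.2% of all genes tested.

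**Figure D1:**
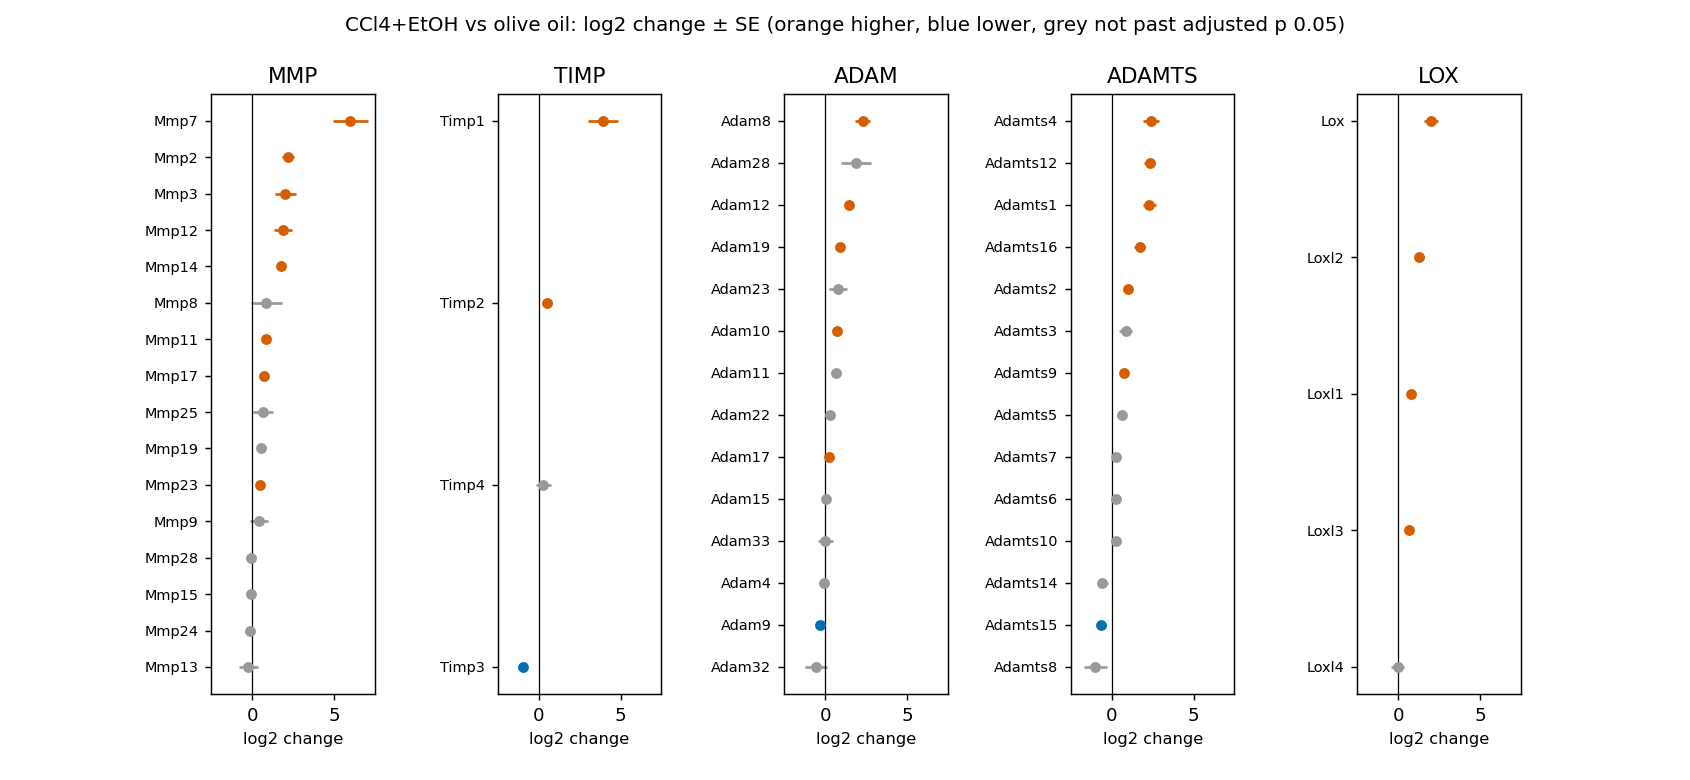
Fitted log2 change in CCl4+EtOH (n = 3) compared with olive oil (n = 3), with SE, for the 53 tested genes, 1 panel a family; orange marks genes that were higher, blue those that were lower and grey those that did not pass adjusted p 0.05. Mmp7 (6.00) and Timp1 (3.91) lie farthest to the right, and Timp3, Adam9 and Adamts15 are the 3 blue points.

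The rise was uneven among the 3 mice. Mouse 3 had the lowest level of the 3 in 20 of the 25 genes that rose, as it did in 82.0% of all 3036 genes that rose. Its gap to the mean of mice 1 and 2 had a median of -0.59 on the log2 scale over the 25 genes and of -0.41 over all genes that rose. The widest gaps were those of Timp1 (-3.18), Mmp7 (-2.54), Adamts4 (-2.07) and Mmp3 (-2.06). Even so, mouse 3 lay above every olive oil library in 22 of the 25 genes, the exceptions being Adam19, Mmp3 and Timp1. Without mouse 3, 30 genes were higher than in olive oil, all 25 of the main test among them, and 4 were lower. The filter on low counts was run anew in that fit (16398 genes passed), so its genes are not the same 53. Adamts19, one of the lower genes, was not tested in the main fit, and genes newly let in were not set apart. In that fit, 28 were higher than in EtOH and 28 than in CCl4. Calls over all genes also rose, to 45.2%, 45.2% and 45.1% in either direction against olive oil, EtOH and CCl4. The log2 change compared with olive oil was then 4.43 for Timp1 (adjusted p = 0.000853), 2.71 for Adamts1 (4.51e-07), 2.36 for Lox (8.11e-05) and -1.05 for Timp3 (0.0013).

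**Figure D2:**
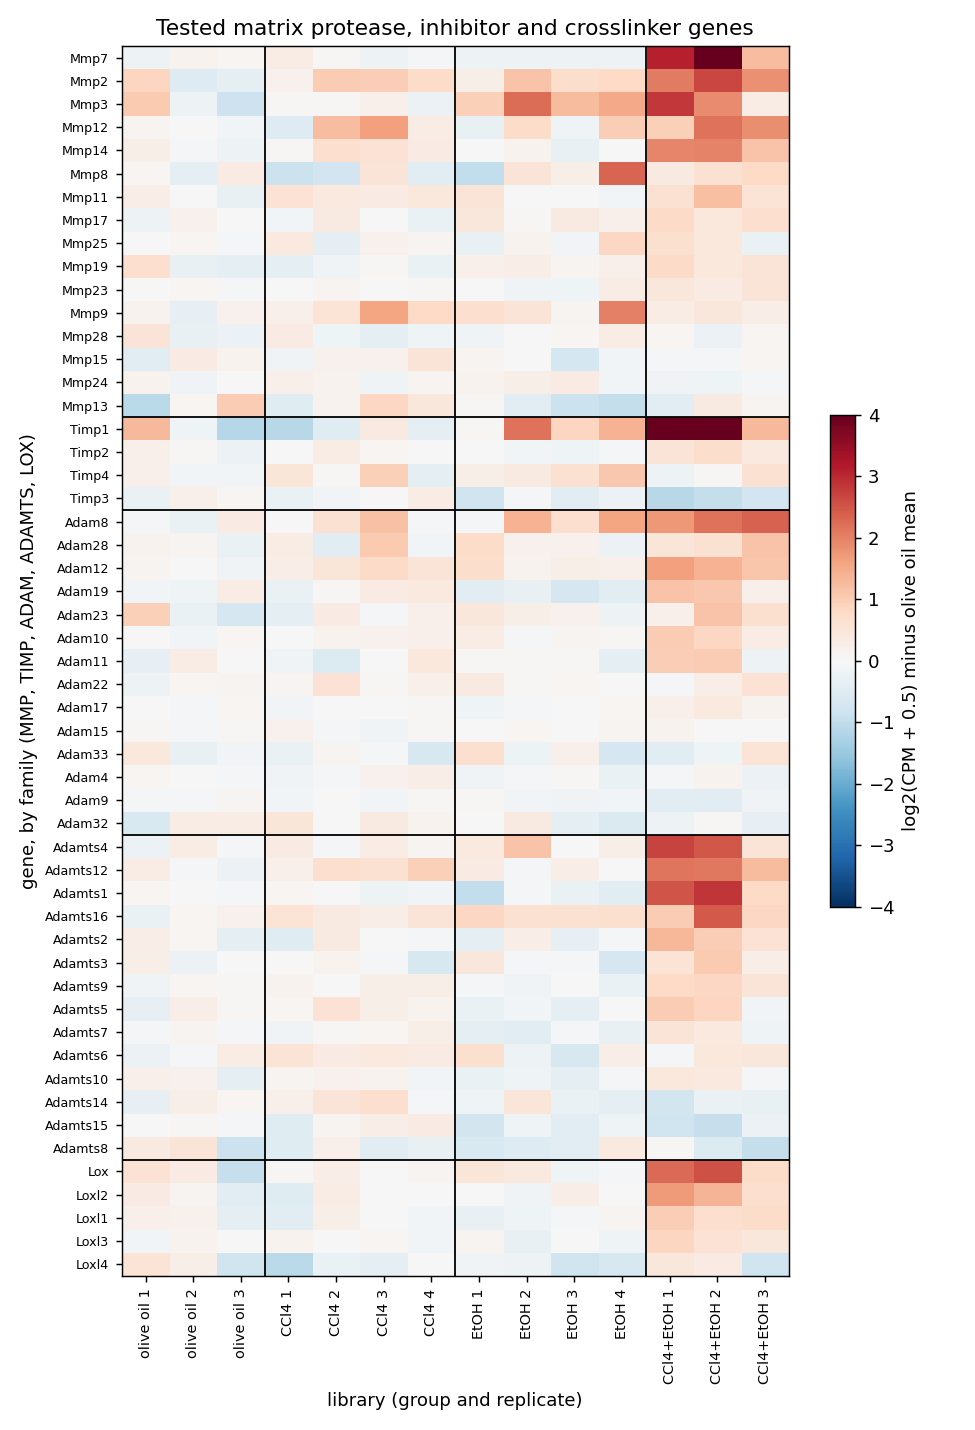
Difference of log2(CPM + 0.5) from the olive oil mean (colour) for the 53 tested genes (rows, grouped by family) in the 14 libraries (columns). Red lies mostly in the 3 CCl4+EtOH columns, with CCl4+EtOH mouse 3 paler in many rows; Mmp8 and Mmp9 are also red in EtOH mouse 4.

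Among the metalloproteinases, Mmp7 had the largest fold change. This small enzyme, matrilysin, is made by epithelial cells and cleaves proteoglycans and cell-surface proteins. It stood at 0, 0.133 and 0.108 CPM in olive oil, at 0 to 0.207 CPM in CCl4, at 0 in all 4 EtOH libraries, and at 4.45, 12.2 and 0.864 CPM in CCl4+EtOH. Every CCl4+EtOH mouse thus lay above all 11 others, with mouse 3 lowest. Because the gene passed the count filter only through these mice, its change is given as a description: 435 counts in CCl4+EtOH stood against 5 in olive oil and 7 in CCl4, and the fitted fold compared with olive oil was 64.2. Compared with EtOH, which had 0 counts, the level was at least 152-fold higher, with 3 counts over the EtOH group as the floor.

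The gelatinase Mmp2 and Mmp14, the membrane-anchored enzyme that activates it at the cell surface, rose together. Mmp2 was at 12.4, 4.55 and 5.15 CPM in olive oil, at 7.51 to 14.1 CPM in CCl4, at 7.98 to 15.4 CPM in EtOH and at 29.8, 45.3 and 24.7 CPM in CCl4+EtOH. Its log2 change was 2.19 ± 0.38 (SE; adjusted p = 0.00112). Mmp14 was at 17.01, 14 and 12.5 CPM in olive oil and at 57.3, 58.7 and 32.04 CPM in CCl4+EtOH, a log2 change of 1.77 ± 0.23 (SE; adjusted p = 0.000203). Both genes were above all 11 other libraries in each of the 3 mice. Mmp14 remained past the threshold under all 24 alternatives, with log2 changes of 1.63 to 2, and Mmp2 did too, with 1.78 to 2.78.

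The stromelysin Mmp3 and the macrophage elastase Mmp12 rose with less certainty. Mmp3 was at 4.34, 1.55 and 0.813 CPM in olive oil and at 16.3, 8.31 and 2.42 CPM in CCl4+EtOH, so that the groups overlapped (log2 change 2.03 ± 0.64 SE, adjusted p = 0.0255). It was also at 4.02, 10.6, 5.20 and 6.21 CPM in EtOH, and the comparison of CCl4+EtOH with EtOH did not pass (0.47 ± 0.55 SE, adjusted p = 0.539). Without CCl4+EtOH mouse 1 its change compared with olive oil was 1.29 (adjusted p = 0.146), and the call was also lost without olive oil mouse 2 (1.82, 0.0935), olive oil mouse 3 (1.64, 0.0906) or CCl4+EtOH mouse 2 (2.09, 0.0519). Mmp12 was at 3.70, 3.36 and 3.09 CPM in olive oil, at 2.23, 8.54, 11.5 and 4.26 CPM in CCl4 and at 7.03, 17.1 and 13.6 CPM in CCl4+EtOH. Its log2 change of 1.89 ± 0.54 (SE; adjusted p = 0.0159) lost its call without olive oil mouse 2 (1.89, adjusted p = 0.0514), olive oil mouse 3 (1.83, 0.0534) or CCl4+EtOH mouse 2 (1.62, 0.0633). Summed levels of 9 macrophage markers were 229 to 337 CPM in olive oil, 199 to 505 CPM in CCl4, 193 to 307 CPM in EtOH and 599 to 855 CPM in CCl4+EtOH, 8 of the 9 rose, and the part of macrophages in the Mmp12 change was not tested.

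Smaller rises were seen for Mmp11, the stromelysin-3 gene (0.85), Mmp17, which encodes an enzyme held in the membrane by a lipid anchor (0.73), and Mmp23 (0.46, all log2 changes). The call of Mmp11 was lost without CCl4+EtOH mouse 2 (0.60, adjusted p = 0.0608). Mmp17 lost it without olive oil mouse 1 (0.61, adjusted p = 0.101), olive oil mouse 3 (0.73, 0.069) or CCl4+EtOH mouse 1 (0.65, 0.0936), and Mmp23 without the same 3 libraries (0.42 to 0.45, adjusted p between 0.0591 and 0.0753). Mmp23 overlaps Mib2, which had more counts (13178 against 1946), and the strand used in counting is not known here, so its value is uncertain. Mmp9, Mmp8, Mmp13, Mmp15, Mmp19, Mmp24, Mmp25 and Mmp28 did not pass the test in this comparison. The collagenase Mmp13 was at 0.469 to 3.63 CPM in olive oil and 1.03 to 2.14 CPM in CCl4+EtOH.

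In the mouse genome 10 of the Mmp genes lie side by side on chromosome 9, in the order Mmp13, Mmp12, Mmp1b, Mmp3, Mmp1a, Mmp10, Mmp8, Mmp27, Mmp20, Mmp7. They include the 3 raised genes Mmp3, Mmp7 and Mmp12, while Mmp1a and Mmp1b had no counts. The promoters of this cluster are textbook targets of AP-1, the Fos/Jun factor, whose site reads TGAGTCA on either strand. In RefSeq promoters (GRCm38.p6, 250 bases before to 50 after the start) this site was found in 9 of the 45 genes of these families with an entry. It was found in 4.656% of 21262 promoters of protein-coding genes. A gene can have more than 1 promoter, so the count of genes and the share of promoters have unlike units. Of those 9 genes, 7 belong to the cluster (Mmp13, Mmp12, Mmp1b, Mmp3, Mmp1a, Mmp10 and Mmp7) and the others are Adam19 and Adam29. The 100 bases before the start are shown for 3 genes that rose and for 2 that hold the same site but were not called, Mmp13 and Mmp10, with the site in capitals.
Mmp7 (chr9:7691990-7692089, plus strand): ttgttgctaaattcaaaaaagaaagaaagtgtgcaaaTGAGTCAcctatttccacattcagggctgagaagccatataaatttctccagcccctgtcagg
Mmp3 (chr9:7445722-7445821, plus strand): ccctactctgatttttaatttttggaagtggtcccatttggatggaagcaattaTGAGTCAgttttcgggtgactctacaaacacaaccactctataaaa
Mmp12 (chr9:7347274-7347373, plus strand): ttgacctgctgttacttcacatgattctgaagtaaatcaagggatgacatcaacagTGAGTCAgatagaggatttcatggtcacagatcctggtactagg
Mmp13 (chr9:7272414-7272513, plus strand): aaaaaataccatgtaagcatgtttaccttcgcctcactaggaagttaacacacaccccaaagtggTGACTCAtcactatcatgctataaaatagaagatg
Mmp10 (chr9:7502242-7502341, plus strand): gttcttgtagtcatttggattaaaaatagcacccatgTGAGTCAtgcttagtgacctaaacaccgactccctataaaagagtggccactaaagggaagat
The site ends 56 bases before the start in Mmp7 and Mmp10, 39 in Mmp3, 37 in Mmp12 and 28 in Mmp13, where it is read on the minus strand. For Mmp7 this holds for the entry shown, while another entry of that gene, with a start farther downstream, held no such site. A match to these letters is a description of the sequence and occurred in raised and not raised genes alike. Mmp10 was too low to be tested, at 0.755, 0.363 and 0 CPM in CCl4+EtOH and at most 0.643 CPM elsewhere, and Mmp27, also untested, was at 1.27, 1.37 and 0.389 CPM in CCl4+EtOH and at 0 to 0.444 CPM in the other 11 libraries. Of the other motifs searched on both strands, the TCF site CTTTGAT was found in 1 gene, Mmp7 (3.217% of all promoters), the ETS site CAGGAAG in 10 (12.459%) and a consensus NF-kB site in none (0.423%).

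**Figure D3:**
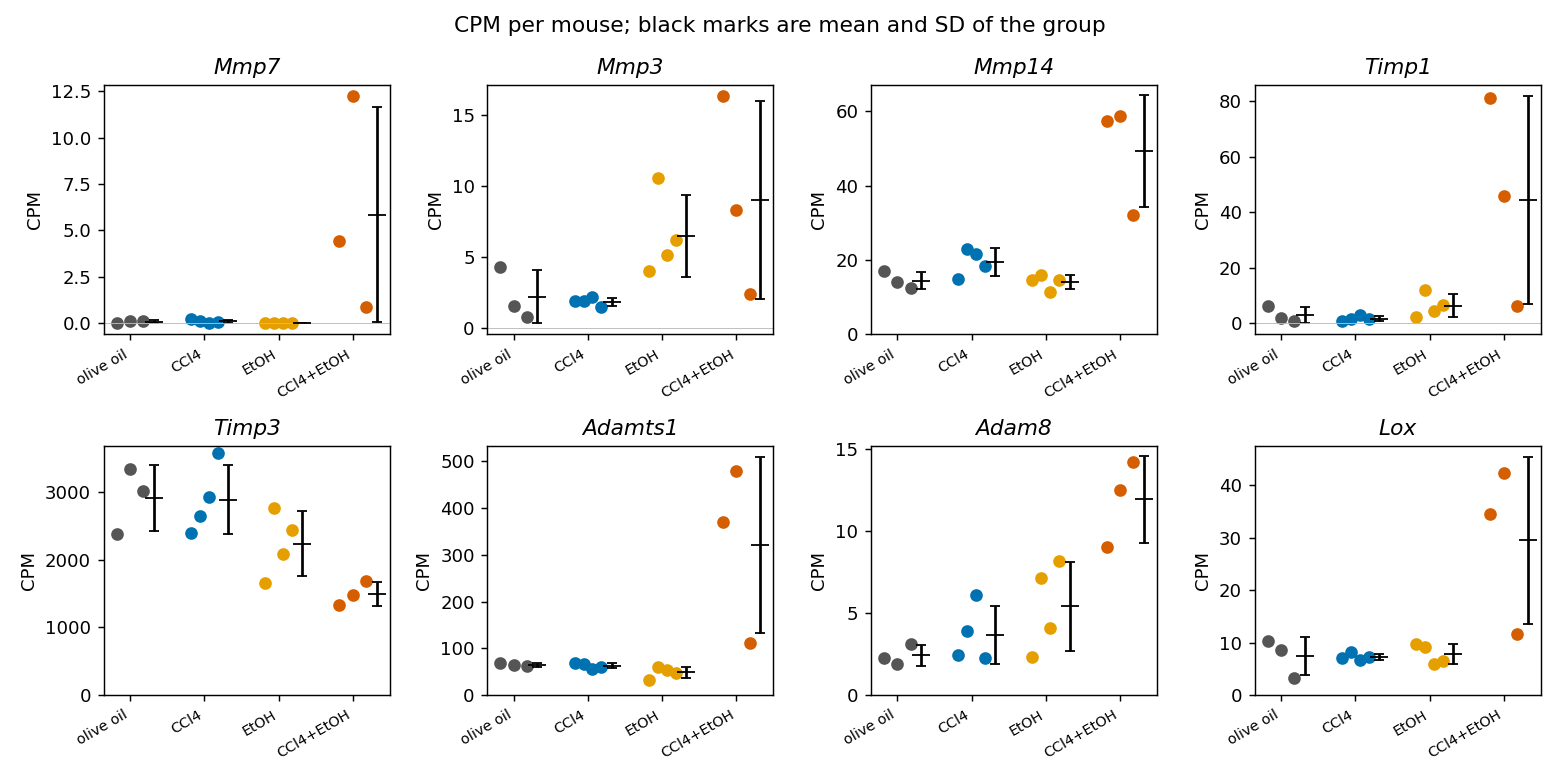
CPM in each of the 14 libraries (coloured points, by group) for 8 genes, with the group mean and SD in black; each panel has its own linear axis. Timp3 is the panel in which the CCl4+EtOH mean lies lowest, with points between 1334 and 1689 CPM beside EtOH mouse 1 at 1651 CPM, and in Timp1 and Mmp3 CCl4+EtOH mouse 3 lies within the range of the other groups.

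The inhibitors moved in opposite directions. Timp1, a secreted inhibitor known to be induced in fibrosis, was at 6.34, 1.94 and 0.759 CPM in olive oil, at 0.777 to 3.07 CPM in CCl4, at 2.33, 11.9, 4.46 and 6.72 CPM in EtOH, and at 81.1, 45.9 and 6.30 CPM in CCl4+EtOH. Mice 1 and 2 of the combined group stood far above all others, while mouse 3 lay within the olive oil range. The log2 change compared with olive oil was 3.91 ± 0.92 (SE, adjusted p = 0.00624), or 2.52 (adjusted p = 0.159) with the term for title number. Compared with EtOH it was 2.81 ± 0.77 (adjusted p = 0.0141), which fell to 2.04 (adjusted p = 0.1) without CCl4+EtOH mouse 1. Timp3, the inhibitor that is bound to the matrix and also blocks ADAM17 and the aggrecanases, was at 2383, 3332 and 3012 CPM in olive oil and at 1334, 1476 and 1689 CPM in CCl4+EtOH. These groups did not overlap, and the log2 change of -0.96 ± 0.21 (SE; adjusted p = 0.00339) remained past the threshold under all 24 alternatives. Compared with EtOH, whose mice had 1651 to 2767 CPM, Timp3 fell by 0.58 on the log2 scale (adjusted p = 0.0352), a call lost without EtOH mouse 2 (-0.46, 0.0951), 3 (-0.61, 0.0514) or 4 (-0.53, 0.0789) or CCl4+EtOH mouse 1 (-0.50, 0.133) or 2 (-0.56, 0.0955).

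Timp2, which takes part in the activation of MMP2 as well as inhibiting it, was at 75.9, 67.2 and 55.5 CPM in olive oil and at 93.1, 106 and 86.7 CPM in CCl4+EtOH (0.53 ± 0.12 SE, adjusted p = 0.00387). Timp4 was at 0.751 to 1.06 CPM in olive oil and 0.675 to 1.55 CPM in CCl4+EtOH and was not called. Per kilobase of exon (GENCODE vM21), Timp3 had the highest level of the 62 genes in both groups, at 616 CPM per kb in olive oil and 317.6 CPM per kb in CCl4+EtOH. Its share of the summed level per kb of the 62 genes was 73.6% and 44.2%. Timp1 went from 3.39 CPM per kb, rank 16, to 50.01 CPM per kb, rank 3. Timp1, Timp3 and Timp4 overlap the synapsin genes Syn1, Syn3 and Syn2, and the strand used in counting is not given in the sources used here. Syn1 had 217 counts in all against 4098 for Timp1, and Syn3 had 9754 against 659372 for Timp3, but Syn2 had 2355 against 330 for Timp4, so the Timp4 values are uncertain.

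Of the membrane sheddases, the most abundant that rose was Adam10, which with Adam17 releases Notch, cytokine and adhesion molecules from the cell surface. Adam10 was at 102, 94.3 and 107 CPM in olive oil and at 203, 178 and 123 CPM in CCl4+EtOH (log2 change 0.73 ± 0.15 SE, adjusted p = 0.00208). Adam17 was at 67.3 to 74.4 CPM in olive oil and 82.0, 91.9 and 77.5 CPM in CCl4+EtOH (0.24 ± 0.09 SE, adjusted p = 0.0401). The Adam17 call was lost on leaving out any of 7 single libraries: each olive oil mouse, CCl4 mouse 2 or 3, or CCl4+EtOH mouse 1 or 2 (log2 changes 0.18 to 0.28, adjusted p 0.0505 to 0.154). Adam17 overlaps Iah1, which had more counts (44121 against 20577), so its value is uncertain. Adam9 was at 196, 197 and 222 CPM in olive oil and at 154, 154 and 186 CPM in CCl4+EtOH (-0.32 ± 0.10 SE, adjusted p = 0.0214), and its call was lost without olive oil mouse 3, CCl4+EtOH mouse 1 or CCl4+EtOH mouse 2 (-0.26 each time, adjusted p 0.0882 to 0.0932).

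Adam8, a gene of leukocytes, behaved unlike most others in that mouse 3 had the highest level. It was at 2.29, 1.90 and 3.14 CPM in olive oil, at 2.25 to 6.08 CPM in CCl4, at 2.33 to 8.18 CPM in EtOH and at 9.06, 12.5 and 14.2 CPM in CCl4+EtOH. The log2 change was 2.29 ± 0.45 compared with olive oil (SE, adjusted p = 0.00213), or 1.46 (0.0787) with the term for title number. Compared with EtOH it was 1.14 ± 0.39 (adjusted p = 0.0375). The second call was lost without EtOH mouse 1 (0.89, 0.0732) or 3 (1.03, 0.0925) or CCl4+EtOH mouse 2 (1.11, 0.102) or 3 (0.996, 0.0823). Adam12, a gene of stromal cells, was at 5.69, 5.30 and 4.71 CPM in olive oil and 17.2, 14.5 and 11.7 CPM in CCl4+EtOH (1.47 ± 0.19 SE, adjusted p = 0.000226), and it kept its call under all 24 alternatives. Adam19 was at 5.34 to 7.70 CPM in olive oil and at 14.1, 13.5 and 7.21 CPM in CCl4+EtOH (0.90 ± 0.25 SE, adjusted p = 0.0137), a call lost without olive oil mouse 2 (0.80, 0.0601) or CCl4+EtOH mouse 1 (0.75, 0.0614) or 2 (0.79, 0.056). The other 8 tested ADAM genes did not pass the test. Summed levels of 9 fibroblast and smooth muscle markers were 377 to 845 CPM in olive oil and 762 to 1749 CPM in CCl4+EtOH, with 3 of 9 higher, and their part in these changes was not tested.

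Among the secreted ADAMTS enzymes, Adamts1, which cuts the proteoglycans versican and aggrecan, had the largest gain in level. It was at 69.05, 64.2 and 61.9 CPM in olive oil, at 56.2 to 67.9 CPM in CCl4, at 32.7 to 61.1 CPM in EtOH and at 371, 480 and 112 CPM in CCl4+EtOH. All 3 mice stood above the other 11, and the log2 change was 2.30 ± 0.39 (SE; adjusted p = 0.000943). Per kilobase, Adamts1 went from rank 7 of 62 (13.3 CPM per kb) to rank 2 (65.7 CPM per kb). The aggrecanase Adamts4 was at 1.53, 2.47 and 1.79 CPM in olive oil and 15.2, 12.8 and 2.94 CPM in CCl4+EtOH (2.41 ± 0.50 SE, adjusted p = 0.00268). Its level is uncertain, since the use of strand in counting is not known here. The other aggrecanase, Adamts5, was at 16.7 to 25.5 CPM in olive oil and at 43.5, 38.3 and 19.3 CPM in CCl4+EtOH, and did not pass the test (0.65 ± 0.25 SE, adjusted p = 0.0545).

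Adamts12 was at 1.23, 0.883 and 0.705 CPM in olive oil and at 5.72, 5.61 and 2.94 CPM in CCl4+EtOH (2.34 ± 0.34 SE, adjusted p = 0.000348). Adamts16 was at 3.87 to 5.42 CPM in olive oil, at 7.47 to 8.68 CPM in EtOH and at 9.93, 27.9 and 8.76 CPM in CCl4+EtOH. Its log2 change compared with olive oil was 1.71 ± 0.34 (SE, adjusted p = 0.00237), and 0.98 (adjusted p = 0.00213) without CCl4+EtOH mouse 2. Compared with EtOH it was 0.99, and 0.26 (adjusted p = 0.261) without that mouse. Of the 3 procollagen N-proteinases, Adamts2 rose from 7.97 to 12.6 CPM in olive oil to 26.7, 21.1 and 15.5 CPM (1.01 ± 0.25 SE, adjusted p = 0.00767). Its log2 change was 0.87 (adjusted p = 0.107) with the term for title number. The others, Adamts3 (0.85 ± 0.39 SE, adjusted p = 0.109) and Adamts14 (-0.56 ± 0.34 SE, adjusted p = 0.213), did not pass. Adamts9 was at 18.8 to 22.0 CPM in olive oil and at 36.8, 36.9 and 29.6 CPM in CCl4+EtOH (0.73 ± 0.11 SE, adjusted p = 0.000505).

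Adamts15 was lower, at 31.97, 33.5 and 31.3 CPM in olive oil and 18.2, 16.9 and 27.5 CPM in CCl4+EtOH (-0.63 ± 0.22 SE, adjusted p = 0.0398). That call was lost on leaving out any of 7 libraries: each olive oil mouse, CCl4 mouse 2, EtOH mouse 3, or CCl4+EtOH mouse 1 or 2 (-0.65 to -0.49, adjusted p 0.0513 to 0.161). Adamts13, which cleaves von Willebrand factor, stayed under 0.5 CPM in every library.

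All of the crosslinking enzymes except Loxl4 rose. Lox was at 10.3, 8.66 and 3.36 CPM in olive oil, at 6.67 to 8.14 CPM in CCl4, at 5.94 to 9.72 CPM in EtOH and at 34.5, 42.2 and 11.6 CPM in CCl4+EtOH (1.98 ± 0.43 SE, adjusted p = 0.00381). Loxl2, which acts on the basement membrane collagen IV, was at 26.5, 22.7 and 15.2 CPM in olive oil and at 68.5, 54.9 and 33.8 CPM in CCl4+EtOH (1.29 ± 0.26 SE, adjusted p = 0.00237). Loxl1, known for elastic fibres, was at 16.1 to 24.1 CPM in olive oil and at 41.4, 33.2 and 35.0 CPM in CCl4+EtOH (0.78 ± 0.18 SE, adjusted p = 0.00443). Its log2 change was 0.67 (adjusted p = 0.0766) with the term for title number. Loxl3 was at 10.6, 12.7 and 11.3 CPM in olive oil and at 21.2, 17.3 and 15.8 CPM in CCl4+EtOH (0.65 ± 0.14 SE, adjusted p = 0.00318), and overlaps Htra2 (6430 counts against 3695). In each of these 4 genes the 3 mice lay above the other 11 libraries. Loxl4 was at 11.97, 9.54 and 4.34 CPM in olive oil and at 11.1, 10.01 and 4.36 CPM in CCl4+EtOH, and did not pass (-0.02 ± 0.40 SE, adjusted p = 0.977).

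Against each agent alone, a like number of genes was higher with both. CCl4+EtOH was higher than EtOH for 26 of 53 genes and lower for 1, Timp3 (18.1% and 16.2% of all genes). It was higher than CCl4 for 25 and lower for 4, Timp3, Adamts15, Adam9 and Adamts14 (18.7% and 16.2%). Leaving aside Mmp7, Mmp25 and Adam28, 25 of 50 were higher and 1 lower than in EtOH, and 24 higher and 4 lower than in CCl4. These comparisons share the CCl4+EtOH mice with the first. Compared with CCl4 the largest rises besides Mmp7 were those of Timp1 (4.69 ± 0.87), Adamts1 (2.35 ± 0.35), Mmp3 (2.25 ± 0.59), Adamts4 (2.23 ± 0.45) and Lox (2.01 ± 0.39, log2 changes with SE). Mmp3 lost this call without CCl4+EtOH mouse 1 (1.51, adjusted p = 0.079). The 4 lower genes were Adamts14 (-0.96 ± 0.32), Timp3 (-0.94 ± 0.20), Adamts15 (-0.71 ± 0.21) and Adam9 (-0.27 ± 0.09). Without CCl4+EtOH mouse 1 or mouse 2, only 1 gene was called lower than in CCl4. Adamts14 also lost its call without CCl4 mouse 2 (-0.89, adjusted p = 0.0732) or 3 (-0.82, 0.0813), and Adam9 without CCl4 mouse 2 (-0.26, 0.0746) or 4 (-0.24, 0.0885). Compared with EtOH, Adamts1 (2.71 ± 0.35), Adamts12 (2.13 ± 0.30), Lox (1.91 ± 0.39), Adamts4 (1.82 ± 0.44) and Mmp14 (1.80 ± 0.21) rose besides Mmp7 and Timp1. When EtOH libraries 1 to 3, those with adrenal markers, were left out, 3 genes were higher than in the single EtOH library that remained, Adam12, Adamts9 and Mmp14, and 335 of all 16777 genes were called; that lone library is assumed to vary as the other groups do.

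Neither the CCl4 nor the EtOH group differed from olive oil past the threshold in any of the 53 genes. The EtOH mice also had 4 further weeks, which cannot be told apart from ethanol. In CCl4 compared with olive oil 0 passed in edgeR, where 0% of all genes were called; 2 had an unadjusted p under 0.05, as 3.97% of all genes did. In EtOH compared with olive oil 0 passed, where 0.0807% of all genes were higher and 0.0869% lower, and 4 were under an unadjusted p of 0.05, beside 10.4% of all genes. Between EtOH and CCl4 0 passed (0.298% and 0.248% of all genes) and 10 were under the unadjusted p (11.1%); Mmp3 was called higher in EtOH by DESeq2 and when only those 2 groups were fitted. DESeq2 and limma-voom called 0 of the 53 for either agent against olive oil; of all 16105 genes they called 350 and 223 with EtOH, and 1 and 0 with CCl4. The largest rises were Mmp3 with EtOH (1.56 ± 0.61, adjusted p = 0.371) and Mmp9 with CCl4 (1.08 ± 0.51, adjusted p = 1). Between the 2 schedules of CCl4, with 2 mice each, 0 of 58 genes tested in that fit passed in edgeR, DESeq2 or limma-voom, and 0 were under the unadjusted p, beside 6.67% of all genes.

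**Figure D4:**
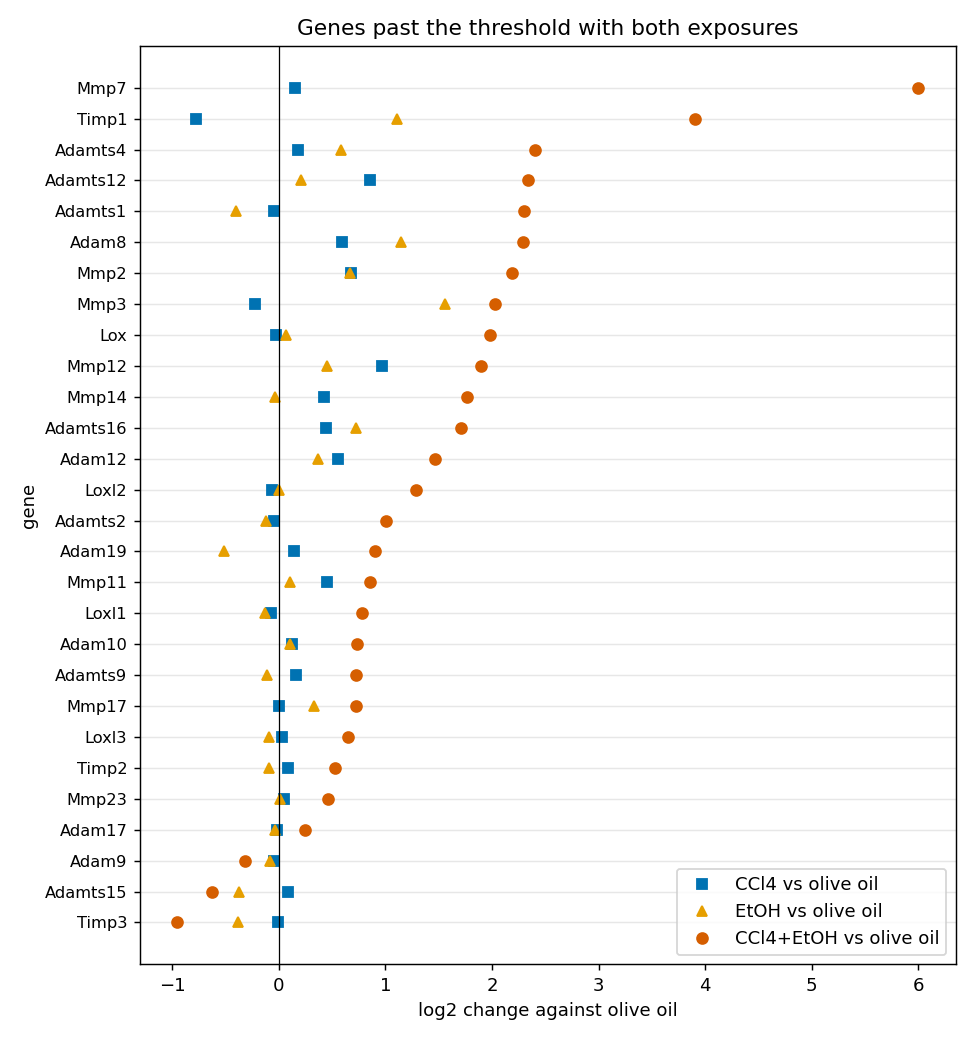
Log2 change against olive oil with CCl4 (blue squares), EtOH (yellow triangles) or both (orange circles) for the 28 genes called with both agents; Mmp7 has no EtOH point because it had 0 counts there, and all 3 comparisons share the olive oil mice. The orange circle is the outermost point in every row, and blue and yellow points lie near 0 for Lox, Loxl1, Loxl2 and Loxl3.

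Whether CCl4 changed a gene more in mice that also received ethanol was tested by the interaction of the 2 agents. Both ethanol groups also had 4 further weeks, which of the other mice only 2 CCl4 mice had, at a lower dose. Ethanol therefore cannot be told apart from time and CCl4 schedule in this test. The interaction was higher for 10 of 53 genes and lower for 0, where 5.49% of all genes were higher and 3.63% lower. The 10 were Adamts1, Lox, Mmp14, Loxl2, Adam19, Adamts2, Loxl1, Loxl3, Adamts9 and Timp2. For Adamts1 the change with CCl4 was 2.71 with ethanol and -0.05 without it, a difference of 2.76 ± 0.49 (SE; adjusted p = 0.0114). For Lox these values were 1.91 and -0.03 (difference 1.94 ± 0.56 SE, adjusted p = 0.0486). Mmp14 changed by 1.80 with ethanol and by 0.43 without it (difference 1.38 ± 0.29 SE, adjusted p = 0.0182). The 4 lysyl oxidases that rose were all among the 10, at differences of 0.71 to 1.94. Of 23 alternatives, the Lox call was lost in 16 (adjusted p up to 0.239), those of Loxl2 and Loxl3 in 10 each and that of Loxl1 in 5; the calls of Timp2, Adamts2 and Adam19 were lost in 15, 13 and 11, those of Mmp14 and Adamts9 in 4 each and that of Adamts1 in 1. Timp1 did not pass (3.58 ± 1.21 SE, adjusted p = 0.0788), but did in DESeq2 (0.0301), in limma-voom (0.0481), with the term for title number (0.0434) and without CCl4+EtOH mouse 3 (0.0124). No interaction value is given for Mmp7, which had 0 counts in EtOH.

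How many genes passed the interaction depended on single mice. Leaving out 1 library at a time left from 1 to 21 genes: 2 without olive oil mouse 1 or 2, 8 without olive oil mouse 3, 5 to 7 without any CCl4 mouse, 4 to 6 without any EtOH mouse, 1 without CCl4+EtOH mouse 1 or 2, and 21 without CCl4+EtOH mouse 3. Over all genes the interaction was called for 1468, and for 340, 304 and 4881 without CCl4+EtOH mouse 1, 2 and 3. Adamts1 passed in each of these fits. Without EtOH libraries 1 to 3 none of the 53 and 3 of all 16777 genes passed; the Adamts1 difference was 2.78 (adjusted p = 0.188), with 1 EtOH library left.

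Mmp8 and Mmp9, the neutrophil collagenase and the gelatinase stored in neutrophil granules, had their highest levels in single mice. Mmp8 was at 0.0991, 1.19, 0.883 and 5.45 CPM in EtOH and at 0.155 to 1.18 CPM in CCl4. It was at 0.398 to 0.975 CPM in olive oil and at 1.03 to 1.55 CPM in CCl4+EtOH. Mmp9 was at 2.43, 2.13, 1.47 and 6.97 CPM in EtOH and at 1.61, 2.17, 5.02 and 2.68 CPM in CCl4. It was at 0.972 to 1.57 CPM in olive oil and at 1.68 to 2.02 CPM in CCl4+EtOH. For both genes the CCl4+EtOH libraries thus lay above those of olive oil without overlap, as for 22.9% of all genes. The summed level of 9 neutrophil markers was 219.6 CPM in EtOH mouse 4 and 37.3 CPM in CCl4 mouse 3, and at most 27.8 CPM elsewhere, with 12.3 to 19.9 CPM in CCl4+EtOH. In CCl4+EtOH compared with olive oil neither gene passed the test (Mmp8 0.87 ± 0.95, Mmp9 0.43 ± 0.54 SE), and none of the 7 tested neutrophil markers rose.

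**Figure D5:**
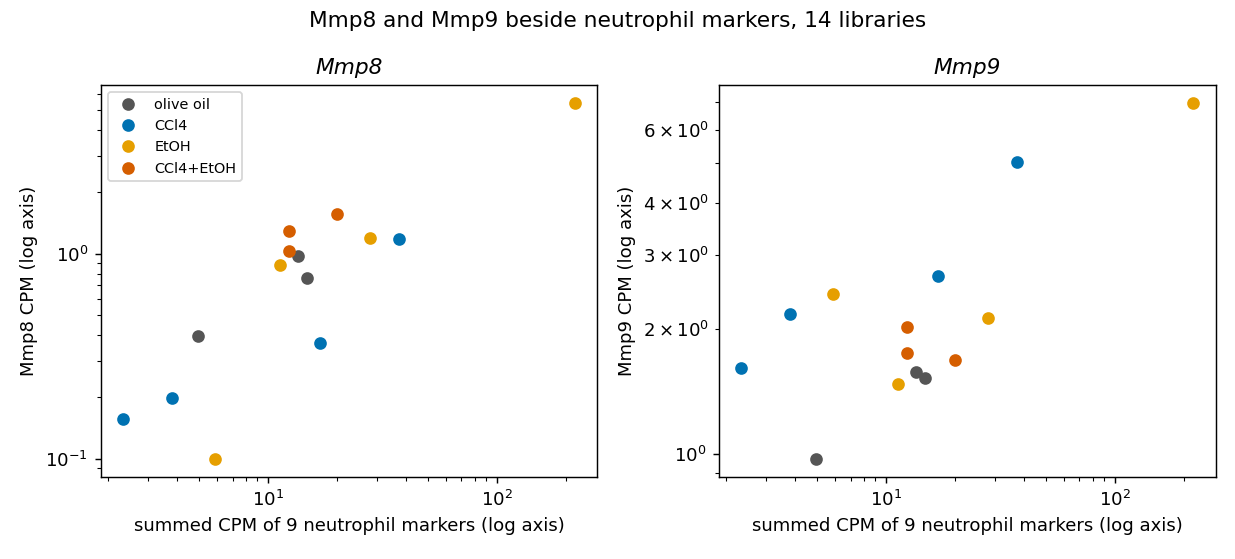
CPM of Mmp8 (left) and Mmp9 (right) against the summed CPM of 9 neutrophil markers, both on log axes, with 1 point for each of the 14 libraries coloured by group. EtOH mouse 4 lies at the upper right in both panels, at 5.45 CPM of Mmp8 and 6.97 CPM of Mmp9, and the 3 CCl4+EtOH points lie in the middle.

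Genes that work with these enzymes were read from 8 lists, whose counts stand beside 18.9% of all genes higher and 16.6% lower. Of 23 fibrillar collagens and elastic fibre proteins, the substrates of the lysyl oxidases, 15 rose and 0 fell in CCl4+EtOH compared with olive oil (median log2 change 1.06), among them Fbn2 (4.75), Fbln2 (1.71), Emilin1 (1.06) and Ltbp3 (0.76). Elastin itself, Eln, was at 0.21 (adjusted p = 0.62). Of 16 tested enzymes that process and crosslink collagen inside or outside the cell, 5 rose and 1 fell (median 0.20). The collagen chaperone Serpinh1 (1.15), the galactosyltransferase Glt25d1 (0.73), the lysyl hydroxylase Plod3 (0.43) and the procollagen C-proteinase Bmp1 (1.32) were among those that rose. In the plasminogen system, which activates several MMPs, 6 of 13 rose and 1 fell (median 1.12). Serpinf2, the plasmin inhibitor, fell from 478 to 517 CPM in olive oil to 155, 63.8 and 125 CPM in CCl4+EtOH (log2 change -2.13).

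Cathepsins and cystatins, the lysosomal cysteine proteases and their inhibitors, rose in 9 of 11 tested genes (median 0.62), including Ctss (1.76), Cstb (1.16), Ctsd (0.96), which is an aspartic protease listed with them, and Ctsz (0.60). Of 10 other metalloproteases of the kidney cell surface or its surroundings, 5 were lower and 1, Pappa, was higher (median -0.35). The meprins Mep1a (-1.27) and Mep1b (-2.43), the angiotensin-converting enzyme Ace (-1.67) and the aminopeptidase Anpep (-1.22) fell. These 4 are genes of the proximal tubule, whose markers were low in mice 1 and 2 as a sum, as given above. Of the 8 markers, 3 were called lower in CCl4+EtOH than in olive oil. Slc5a12 alone was not below every olive oil mouse in mice 1 and 2, at 379 and 582 CPM against 348 to 519 CPM. The part of the tubule markers in these changes was not tested. In mouse 3, Mep1b was at 83.4 CPM and Mep1a at 1328 CPM, against 239.7 to 361 and 2310 to 2833 CPM in olive oil. Of the 8 tubule markers, 2 were below every olive oil mouse in mouse 3 (Aqp1 and Slc22a6), 2 within their range and 4 above.

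Of 10 partners of ADAM10 and ADAM17, 4 rose and 1 fell (median 0.25): Rhbdf2, the carrier that brings ADAM17 to the surface (0.87), Lrp1 (0.64), Tspan17 (0.57) and Tspan14 (0.46) rose. Of 14 tested proteins that these sheddases release, 6 rose (median 0.34), led by Havcr1, the kidney injury molecule (7.10), Vcam1 (4.38), Tnfrsf1b (1.41) and Cxcl16 (1.33). Of 12 ADAMTS-like proteins and proteoglycans, 6 rose (median 0.77), among them the versican gene Vcan (2.23), Adamtsl4 (1.55), Thsd4 (1.01) and Bgn (0.98).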

How the data were processed

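The authors deposited unnormalized counts of reads by gene symbol, with a column for each mouse. The submitters' processing notes name GSNAP and mm9; no counting program, annotation or strand setting is given in the sources used here. The table held 14 of the 15 samples, so 1 mouse given olive oil was not analysed here. Of 23893 rows, 27 carried dates in place of symbols (0.168% to 0.209% of counts) and were left out.

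Testing used edgeR 4.0.16 under R 4.3.3: genes passing filterByExpr by group (16105), TMM scaling, a robust quasi-likelihood F test in 1 fit of 4 groups, and Benjamini-Hochberg adjustment over all genes tested at 0.05. SE was taken as the log2 change over the root of F. A fit with 5 groups (16442 genes) set the CCl4 schedules against each other. DESeq2 1.42.0 and limma 3.58.1 served as alternatives. The labels do not say how mice were housed or RNA batched, so p-values measure the spread between libraries as labelled; no pair of libraries within a group agreed within sampling noise.

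The genes and the gene lists were chosen with earlier results of these data known. Named genes were the 14 with the largest rise and 8 with the largest fall among called genes whose higher group averaged 1 CPM or more, 6 in each direction in other comparisons, a fixed set of 21 family members, and up to 4 genes of each list with the smallest p. Adamts9, Mmp11, Mmp17, Mmp23, Mmp8, Mmp10, Mmp13 and other genes named singly were added after their values were seen. Promoters were matched by symbol in RefSeq (GRCm38.p6), which is not the build of the counts, and exon lengths in GENCODE vM21. Protein sequences were not used here. Not every gene chosen in this way is reported here.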

Additional observations from a re-analysis of the deposited data

Results flagged for a closer look

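In 5 genes 1 library stood apart from the other 3 of the EtOH group, and each time it was EtOH mouse 1, which is among the 3 EtOH libraries with adrenal markers. Adamts16 was at 8.68 CPM there and at 7.47 to 7.67 CPM in the others, and Adam12 was at 8.82 CPM against 5.84 to 6.23 CPM. Adam9 was at 213 CPM against 185 to 189 CPM, Mmp11 at 7.09 CPM against 4.44 to 4.81 CPM, and Adamts13 at 0.198 CPM against 0.0491 to 0.0634 CPM, on 7 counts over the 4 libraries. Chance marks about 1 in 20 groups of samples in this way. Many genes of these families were examined, in both the CCl4 and the EtOH group, so several such marks can arise by chance.

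The change with CCl4 differed between mice that received ethanol and mice that received vehicle for 10 genes, by the interaction term in edgeR. As above, ethanol cannot be told apart there from time and CCl4 schedule. The log2 differences (ethanol minus vehicle) were 2.76 for Adamts1 (adjusted p = 0.0114), 1.94 for Lox (0.0486), 1.38 for Mmp14 (0.0182), 1.36 for Loxl2 (0.0299) and 1.28 for Adam19 (0.0341). They were 1.18 for Adamts2 (0.0444), 0.99 for Loxl1 (0.0239), 0.71 for Loxl3 (0.0328), 0.68 for Adamts9 (0.0183) and 0.54 for Timp2 (0.0456). In each of the 10, the change with CCl4 among vehicle mice was between -0.08 and 0.43, and among ethanol mice between 0.62 and 2.71.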

How the results depend on the processing

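No called value changed sign under any alternative run. With a term for low or high title number, 16 genes were higher in CCl4+EtOH than in olive oil, of which 15 are among the 25 of the main test. With that term 2 were lower than in CCl4, beside 28.8% of all genes in either direction. The 11 calls that term ended against olive oil included Timp1 (2.52, adjusted p = 0.159) and Mmp7, given as a description, whose fitted change rose to 7.91. Fitting only the groups compared gave 1 lower gene against olive oil, 0 against EtOH and 2 against CCl4. It gave 1 higher in EtOH than in CCl4 (Mmp3), as did DESeq2. Over all genes, fits of only the groups compared called 21.0%, 21.5%, 25.9% and 1.42% in either direction, in that order. DESeq2 called 2.32% of all genes between EtOH and CCl4. Without EtOH libraries 1 to 3, 5 genes were lower than in olive oil (Adamts19 and Adamts20 in addition), 3 were higher and 0 lower than in EtOH, and 0 passed the interaction, which limma-voom put at 21 genes. Limma-voom called 29.9% of all genes in the interaction in either direction, against 9.12% in the main fit. DESeq2 size factors, DESeq2 and limma-voom each called 2 genes lower than in EtOH. Of all genes they called 34.3%, 37.1% and 43.4% there in either direction. DESeq2 called 1 lower in the interaction (Mmp9), beside 15.6% of all genes in either direction. Leaving out each library in turn, with the filter on low counts run anew, gave 20 to 30 higher and 1 to 4 lower genes against olive oil. It gave 18 to 28 and 0 to 2 against EtOH, 19 to 28 and 1 to 4 against CCl4, and 1 to 21 in the interaction. Over all genes the same fits called 24.0% to 45.2%, 19.6% to 45.2%, 21.3% to 45.1% and 1.78% to 29.8%, in that order and in either direction. The cause of these shifts was not tested. No paired analysis was possible because the labels give the groups no shared replicate numbers. Over the olive oil group, 3 counts correspond to 0.0516 CPM, so a fall from a level near it could not be seen.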

Other observations

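Several genes too low for testing were high in 1 or 2 libraries, and are given as values chosen after they were seen. Adamts20 was at 3.36 CPM in olive oil mouse 2 and at most 0.347 CPM in every other library. Adamts19 was at 0.997 and 0.867 CPM in olive oil mice 1 and 3 and at most 0.122 CPM elsewhere. Adam2, a gene known from sperm, was at 1.67 CPM in CCl4+EtOH mouse 1 and at most 0.182 CPM elsewhere, and Adam7, known from the epididymis, was at 1.33 CPM in CCl4 mouse 2 and at most 0.484 CPM elsewhere. Adamts18 was at 0.532 CPM in CCl4 mouse 3 and at most 0.0987 CPM elsewhere. Adam5 was at 0.556, 0.847 and 0.259 CPM in CCl4+EtOH and at most 0.395 CPM elsewhere, and Mmp16 was at 0.0991 to 0.532 CPM over all libraries.

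Among genes that were tested and not called in CCl4+EtOH compared with olive oil, Adam11 was at 15.9, 25.0 and 20.4 CPM in olive oil and at 40.2, 41.0 and 17.4 CPM in CCl4+EtOH. Mmp19 was at 11.3, 5.48 and 5.15 CPM in olive oil and at 12.1, 9.40 and 9.97 CPM in CCl4+EtOH. It was called higher than in CCl4 (0.80 ± 0.23 SE, adjusted p = 0.0142), but it overlaps Tmem198b (2769 counts against 2227), so its value is uncertain. Adamts10 and Adamts7 were called higher than in EtOH (0.50 and 0.61, adjusted p = 0.0204 and 0.022) but not higher than in olive oil (0.26 and 0.29, adjusted p = 0.232 and 0.273); whether these differences differ was not tested.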
